A study of Chlorocebus aethiops with 24 samples.

Results

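The ubiquitin and proteasome genes described here were followed in the hippocampus of vervet monkeys that had or had not been exposed to alcohol before birth. They are the probe sets whose annotation gives 1 gene symbol that begins with PSM and a letter from A to G (the proteasome), with UBE2 (the ubiquitin conjugating enzymes) or with USP (ubiquitin specific proteases). The rule took 82 of the 11512 probe sets in the table and 71 gene symbols. The PSM prefix gave 31 probe sets of 26 symbols, the UBE2 prefix 24 of 20 and the USP prefix 27 of 25. A further 3 probe sets of these prefixes carry several symbols and were left out. The rule reads names and not levels.

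The animals were males born to alcohol-preferring dams. In the FASD groups (fetal alcohol spectrum disorder) the dams were offered an ethanol solution in the last part of pregnancy, and in the control groups a sucrose solution of equal calories. A dam could receive ethanol in one breeding cycle and sucrose in another, and the labels used here do not give the dams, so animals of both exposures may share a mother. Total RNA of the whole left hippocampus was hybridized to a rhesus macaque array, 1 array per animal. The groups used were 5 FASD animals and 6 control animals at 2 years of age, and 5 FASD animals and 6 control animals at 5 months. For control animal 6 at 5 months 1 label, the source name, gives 2 years, but the other labels give 5 months, where it was kept. Vervet RNA was measured with macaque probes, so a sequence difference under a probe can lower its signal in all animals, and levels of different probe sets were not set against each other. Because the tissue is a mixture of cells, fewer cells of a type and less RNA per cell cannot be told apart.

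Ubiquitin is passed from an activating enzyme to a conjugating enzyme and, with the help of a ligase, to a target protein. Chains of ubiquitin can send the target to the proteasome, a barrel of alpha and beta rings whose beta subunits cut proteins and whose ends carry a regulatory particle with an ATPase ring, while deubiquitinases such as the USP enzymes remove or trim the chains. In neurons this system takes part in the turnover of synaptic proteins and in the remodelling of synapses.

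The values are log2 expression intensities. Differences are on the log2 scale and come from limma, in which the 4 group means were estimated for every probe set of the table. Alcohol differences are the mean of the FASD minus control values of the 2 ages. Age differences are the mean of the 2 years minus 5 months values of the 2 exposures. The interaction is the alcohol difference at 2 years minus that at 5 months. Adjusted p values are Benjamini-Hochberg values over all 11512 probe sets. None of the 82 probe sets had an adjusted p under 0.05 in any of the 7 comparisons made (alcohol, age, interaction, alcohol at each age and age in each exposure), and the lowest adjusted p of a member was 0.579 for alcohol and 0.288 for age. Of all probe sets 0% had an adjusted p under 0.05 for alcohol, for the interaction and for the comparisons within an age or an exposure, and 0.139% had one for age. Unadjusted p values under 0.05 are therefore counted below as a description, beside the share of all probe sets that had one.

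The array of FASD animal 2 at 5 months stood apart from the others. Its mean correlation with the other arrays was 0.979, against 0.984 to 0.991 for the remaining animals. It had the highest mean deviation of the markers of mural cells and fibroblasts, 1.02, of oligodendrocytes, 0.61, and of microglia, 0.44. Control animal 1 at 5 months had nearly the same microglia value, 0.43. Over all 5 FASD animals at 5 months the oligodendrocyte score lay between 0.05 and 0.61, against -0.27 to 0.08 in the controls of that age, and at 2 years it lay between -0.37 and 0.07 in FASD animals and between -0.31 and 0.21 in controls. The 4 measured oligodendrocyte markers had a median alcohol difference of 0.20, with 2 of 4 at unadjusted p under 0.05. The oligodendrocyte precursor score lay between -0.39 and 0.35 in FASD animals and between -0.58 and 0.21 in controls at 2 years, while at 5 months all FASD animals, 0.13 to 0.36, lay above all controls, -0.18 to 0.04. Its 4 markers had a median alcohol difference of 0.19, with 1 of 4, GPR17, at unadjusted p under 0.05. The neuronal markers of the hippocampus (SYT1, STMN2, NEUROD6 and PROX1) averaged 13.02, 12.76, 10.02 and 7.93 over the 22 arrays, and no blood marker was measured. The medians of the alcohol difference were -0.096 for these 4 markers, with 0 of 4 at unadjusted p under 0.05, and -0.12 for the 2 interneuron markers, with 1 of 2, GAD1, at that limit. The neuron score was lowest in FASD animal 2 (-0.56) and control animal 2 (-0.27) at 2 years and in FASD animal 2 at 5 months (-0.41), each the lowest of its group. The part of these cell type differences in the values below was not tested.

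Alcohol differences of the 82 probe sets were small and more often below zero than above. They lay between -0.37 and 0.16, and 51 of 82 (62.2%) were below zero, against 53.2% of all probe sets. Unadjusted p under 0.05 was reached by 8 of the 82, 7 of them lower and 1 higher in FASD animals, which is 9.76%, against 8.44% of all probe sets (6.01% lower and 2.43% higher). The share among the members was therefore near that of the table. By prefix, 2 of 31 PSM, 3 of 24 UBE2 and 3 of 27 USP probe sets reached it. The median alcohol difference was -0.031 for PSM, -0.020 for UBE2 and -0.033 for USP, beside -0.0069 for all probe sets. Of the PSM probe sets 22 of 31 were below zero. Above zero were 9 of 31, beside 46.8% of all probe sets. When each array was centred on its median 12 of 31 were above zero, beside 52.9% of all. After quantile normalization 14 of 31 were, beside 54.4%, and with array weights 5 of 31, beside 48.7%. Over the 7 alternatives that kept all animals and gave medians, the PSM median lay between -0.061 with array weights and -0.0067 with quantile normalization, the USP median between -0.042 and -0.011, and the UBE2 median between -0.021 and 0.0031, turning above zero with quantile normalization.

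**Figure D1:**
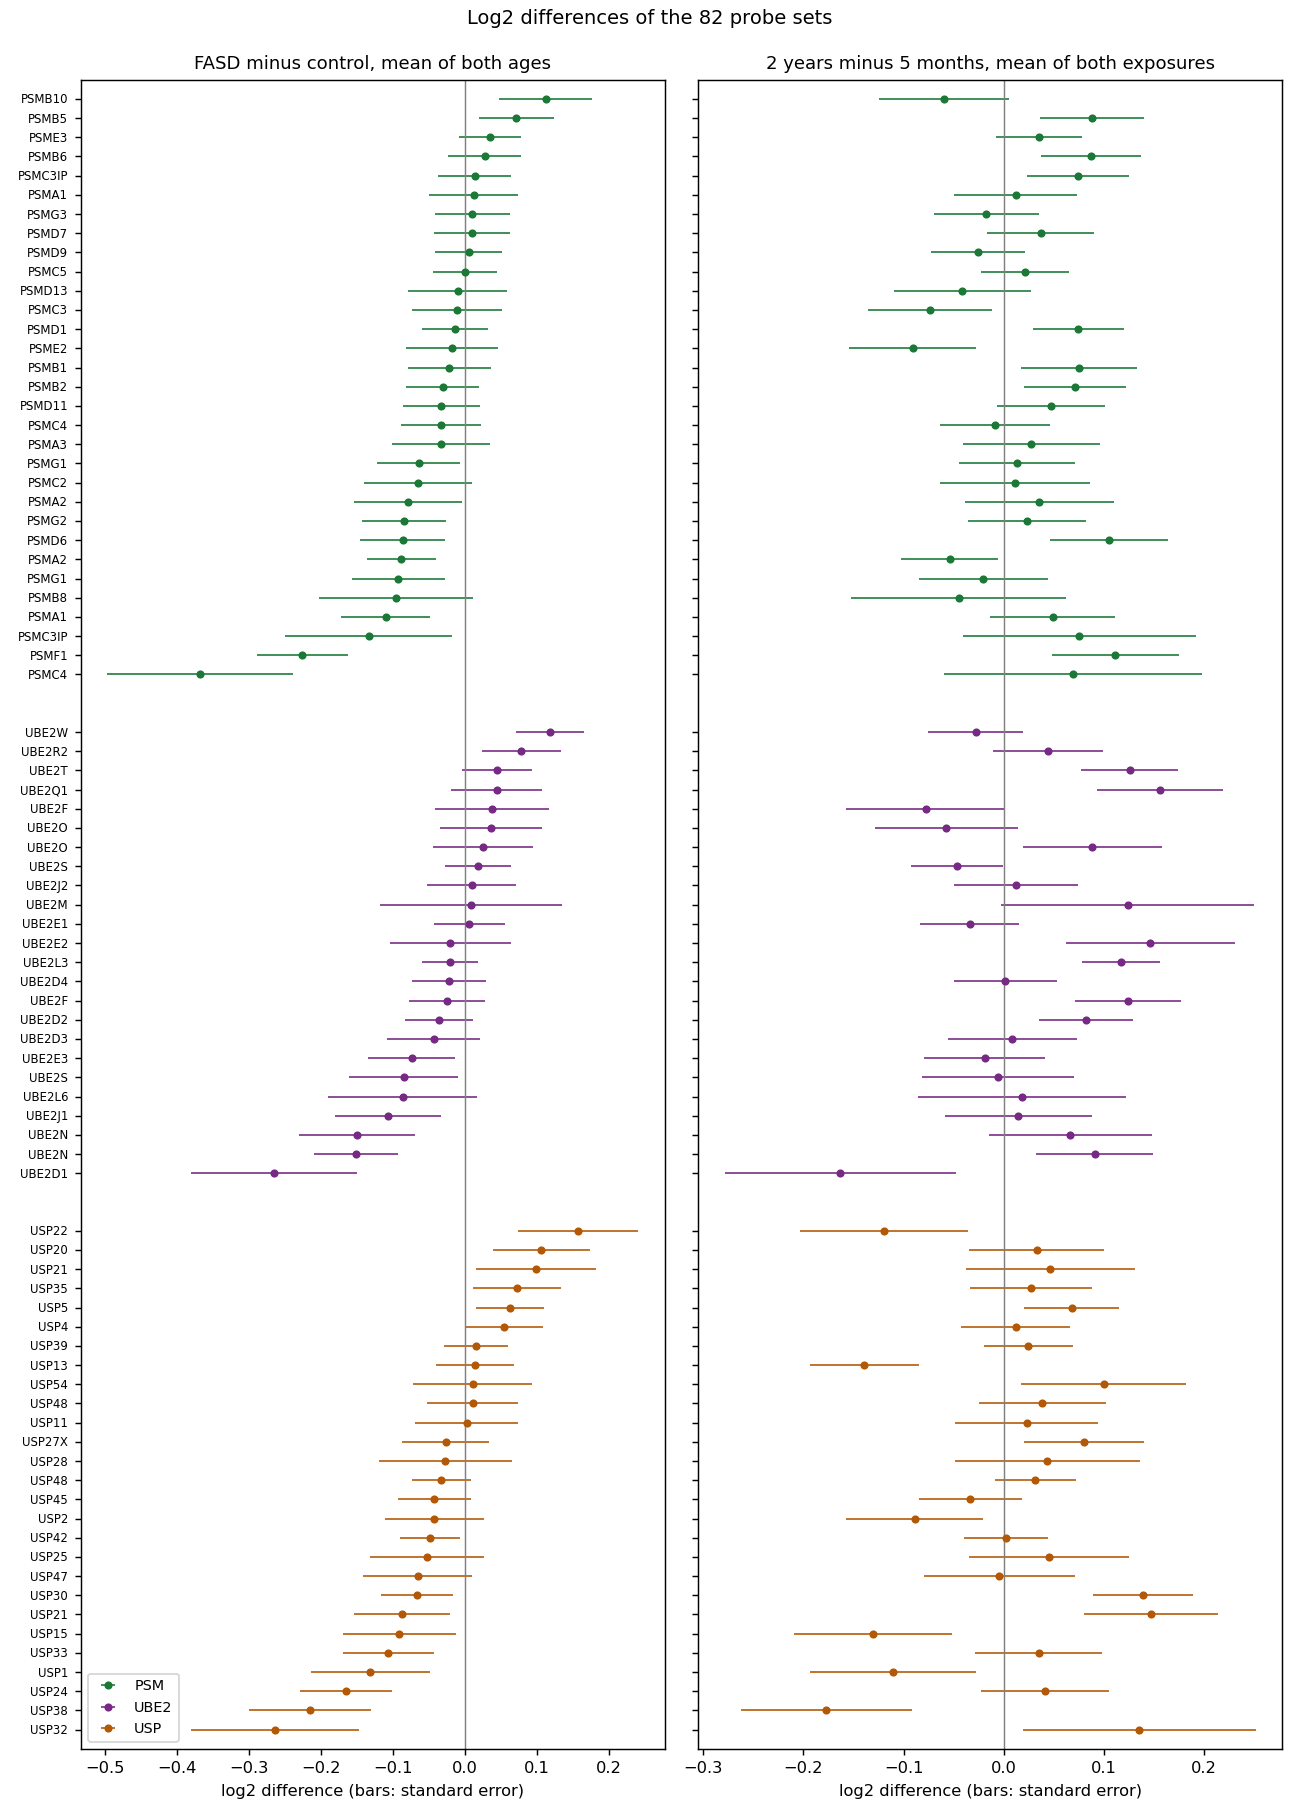
Log2 differences of the 82 probe sets for FASD minus control (left panel) and 2 years minus 5 months (right panel), each point a probe set with its standard error, grouped by prefix and ordered within a prefix by the alcohol difference; a symbol with 2 probe sets appears 2 times. Most points lie within 0.2 of zero, and PSMC4, PSMF1, UBE2D1, USP32 and USP38 lie farthest below it in the left panel.

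At 5 months 61 of the 82 alcohol differences (74.4%) and 26 of 31 of the PSM probe sets (83.9%) were below zero, beside 61.0% of all probe sets. At 2 years 41 of 82 (50%) were below zero, beside 46.1% of all probe sets. Both ages pointed down for 34 members and up for 14. For 27 the difference was above zero at 2 years and below zero at 5 months, and for 7 it was the other way round. The shares of the members were 41.5%, 17.1%, 32.9% and 8.54% in this order. The shares over all probe sets were 32.3%, 25.2%, 28.7% and 13.8% in the same order. Unadjusted p under 0.05 was reached by 7 of 82 (8.54%) at 2 years, beside 6.05% of all probe sets, and by 1 of 82 (1.22%) at 5 months, beside 4.83%. For the interaction 1 member was below zero and 1 above zero at that limit, beside 0.886% and 2.11% of all probe sets, 3% in all. Among the PSM probe sets, 13 were down at both ages, 1 was up at both, and 13 were above zero at 2 years and below zero at 5 months.

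PSMF1, an inhibitor of the proteasome core, had the lowest p of the members for alcohol and ranked 21 of all probe sets. Its level in FASD animals at 2 years was 7.46, 7.59, 7.67, 7.69 and 7.70, against a lowest value of 7.63, a median of 7.73 and a highest of 7.95 in controls. At 5 months the FASD animals had 7.18, 7.32, 7.37, 7.53 and 7.57, against 7.58 (lowest), 7.69 (median) and 8.11 (highest) in controls. Every FASD animal thus lay below every control at 5 months, by a narrow margin at the boundary, while the groups overlapped at 2 years. The means were 7.63 ± 0.10 in FASD animals and 7.73 ± 0.12 in controls at 2 years (SD, n = 5 and 6), and 7.39 ± 0.16 in FASD animals and 7.74 ± 0.19 in controls at 5 months (SD, n = 5 and 6). The alcohol difference was -0.23 (SE 0.06, unadjusted p = 0.00163, adjusted p = 0.579 in limma). The exact permutation test of this value alone, which exchanged animals within each age over 213444 arrangements, gave a two-sided p of 0.000726. The difference was -0.11 at 2 years and -0.35 at 5 months, and the interaction was 0.24 (SE 0.13, unadjusted p = 0.072), so a difference between the ages was not shown. Groups that did not overlap at 5 months with the FASD animals lower made up 0.321% of all probe sets and 1 of the 82 members. Control animal 1 was the highest animal of its group at both ages. Without that animal at 5 months the alcohol difference was -0.19 and the difference at 5 months was -0.27, and without the one at 2 years the alcohol difference was -0.20. The oligodendrocyte precursor score also separated the exposures at 5 months, and its part in the PSMF1 values was not tested.

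The other regulators of the core were the activators PSME2 and PSME3. PSME3, a nuclear activator, had 6.70, 6.72, 6.75, 6.76 and 6.78 in FASD animals at 2 years, against 6.54, 6.62 and 6.68 (lowest, median and highest) in controls. The FASD animals at 2 years therefore all lay above the controls, which was so for 0.2% of all probe sets in that direction. The difference was 0.12 with an unadjusted p of 0.0603, and the values were 6.41, 6.61, 6.61, 6.67 and 6.80 in FASD animals at 5 months, within and around the control range of 6.60 to 6.76. PSME2 had an alcohol difference of -0.018. Its level in controls averaged 8.64 ± 0.16 at 2 years and 8.83 ± 0.19 at 5 months (SD, n = 6 each), an age difference in controls of -0.19 with an unadjusted p of 0.0411. This p was 0.0776 after centring, 0.082 after quantile normalization and at least 0.05 in 7 of 22 omissions of 1 animal, up to 0.129.

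**Figure D2:**
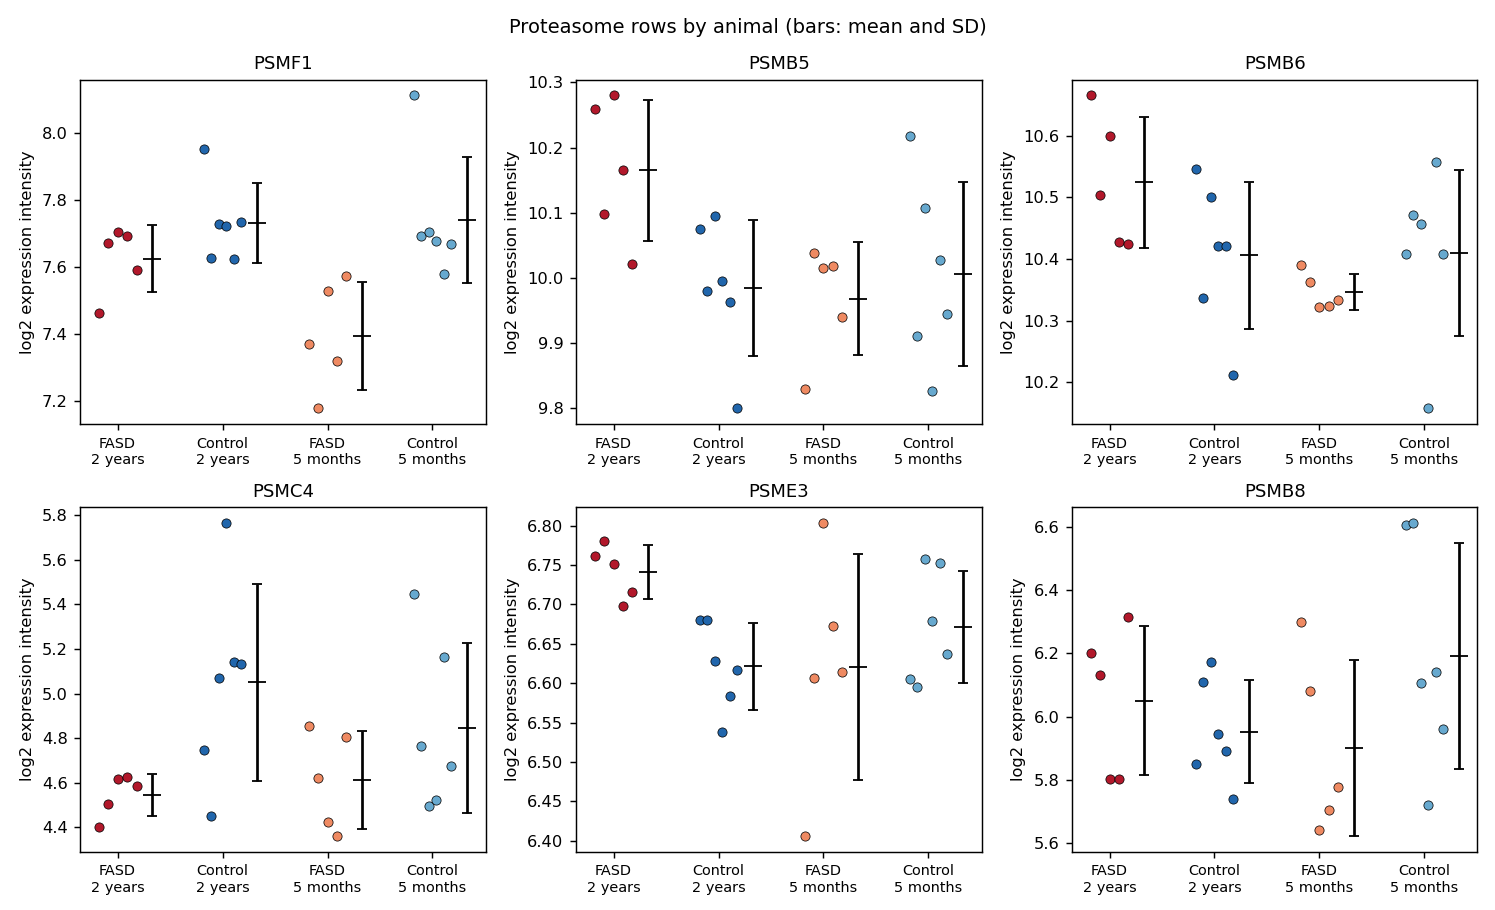
Log2 expression intensity of 6 proteasome probe sets in each animal, with the group mean and SD beside the points; the groups are FASD and control at 2 years and FASD and control at 5 months. PSMF1 is lower in all 5 FASD animals than in all 6 controls at 5 months, PSME3 is higher in all 5 FASD animals than in all controls at 2 years, and the PSMC4 probe set shown is the one with a mean of 4.78.

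The beta ring carries the cutting sites. Its 4 measured subunits (PSMB1, PSMB2, PSMB5 and PSMB6) had alcohol differences between -0.031 and 0.071, and age differences between 0.071 and 0.088. The interaction was above zero for all 4, while it was above zero for 20 of 31 PSM probe sets and for 60.0% of all probe sets. After centring it was above zero for 15 of 31 PSM probe sets and for 46.0% of all. Of the 4 beta subunits PSMB1 had the lowest interaction, 0.013, and centring put it below zero. Centring lowered every interaction by the same amount, that of PSMB5 from 0.22 to 0.17. PSMB5, the subunit with chymotrypsin-like activity, had 10.02, 10.10, 10.16, 10.26 and 10.28 in FASD animals at 2 years, against 9.80, 9.99 and 10.09 (lowest, median and highest) in controls. At 5 months it had 9.83, 9.94, 10.02, 10.02 and 10.04 in FASD animals, against 9.83, 9.99 and 10.22 in controls. FASD animals were on average above controls at 2 years and level with them at 5 months, with overlap at both ages. The difference was 0.18 at 2 years and -0.037 at 5 months, and the interaction was 0.22 (SE 0.10, unadjusted p = 0.0477, adjusted p = 1). Centring the arrays on their medians gave an interaction of 0.17 with an unadjusted p of 0.0797.

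PSMB6, the subunit with caspase-like activity, differed with age in the FASD animals. It had 10.42, 10.43, 10.50, 10.60 and 10.67 in FASD animals at 2 years, against 10.32, 10.32, 10.33, 10.36 and 10.39 in FASD animals at 5 months. These 2 groups did not overlap, as for 0.921% of all probe sets in this direction. In controls the range was 10.21 to 10.55 at 2 years and 10.16 to 10.56 at 5 months. The age difference was 0.18 in FASD animals (unadjusted p = 0.0256) and -0.0035 in controls, and the interaction had an unadjusted p of 0.0852. The p within FASD animals was 0.0585 after quantile normalization and at least 0.05 in 2 of 22 omissions, up to 0.0797. PSMB6 was also the PSM probe set that followed the mean of the other PSM probe sets most closely, with a residual correlation of 0.75 over 22 arrays.

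The inducible beta subunits PSMB8 and PSMB10, which replace their constitutive partners in immune cells and after interferon, differed in direction. PSMB8 averaged 6.05 ± 0.24 in FASD animals and 5.95 ± 0.16 in controls at 2 years, and 5.90 ± 0.28 in FASD animals and 6.19 ± 0.36 in controls at 5 months (SD, n = 5 and 6 at each age). Its alcohol difference was -0.096 (SE 0.11). PSMB10 had an alcohol difference of 0.11 (SE 0.06, unadjusted p = 0.098), and its highest value, 11.08, was that of FASD animal 2 at 5 months. Without that animal the alcohol difference was 0.071 for PSMB10 and -0.15 for PSMB8, whose difference at 5 months was then -0.39 (unadjusted p = 0.0182) and whose interaction was 0.49 (unadjusted p = 0.0293). With all animals the groups of PSMB8 and of PSMB10 overlapped at both ages. UBE2L6, the conjugating enzyme of the interferon-induced modifier ISG15, had an alcohol difference of -0.086 (SE 0.10), and its controls at 5 months ranged from 7.40 to 8.54.

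The 5 probe sets of the alpha ring subunits PSMA1, PSMA2 and PSMA3 had alcohol differences between -0.11 and 0.012, with 4 of 5 below zero and all 5 below zero at 5 months. The PSMA1 probe set with a mean of 10.98 averaged 10.94 ± 0.04 in FASD animals and 11.05 ± 0.23 in controls at 2 years (SD, n = 5 and 6), and the wide spread of these controls came with 1 animal at 10.61. The lid and base subunits of the regulatory particle (PSMD1, PSMD6, PSMD7, PSMD11 and PSMD13) lay between -0.087 and 0.0097, and the assembly chaperones (PSMD9, PSMG1, PSMG2 and PSMG3) between -0.093 and 0.010. With all animals none of these 15 probe sets reached an unadjusted p under 0.05 for alcohol or age. Without 1 animal 5 of them did, in 5 of 22 omissions, and the matching share of all probe sets was not counted. Without control animal 2 at 2 years the PSMA1 probe set of mean 10.98 differed by -0.15 for alcohol (unadjusted p = 0.00253), a PSMA2 probe set by -0.13 (unadjusted p = 0.0439) and PSMD6 by -0.12 (unadjusted p = 0.029), and PSMD6 was 0.14 higher at 2 years (unadjusted p = 0.0132). Without that animal 14.6% of all probe sets had an unadjusted p under 0.05 for alcohol and 12.4% for age. PSMC3IP, a meiotic recombination factor that shares the prefix without being a proteasome subunit, differed by -0.13 and 0.014 in its 2 probe sets.

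The ATPase ring was measured by 5 probe sets, and 4 of them had alcohol differences between -0.065 and -0.00014. The fifth, a PSMC4 probe set with a mean of 4.78, at percentile 5.52 of the mean intensities in the table, had the lowest alcohol difference of the 82. It had 4.40, 4.50, 4.59, 4.62 and 4.62 in FASD animals at 2 years, against 4.45, 5.10 and 5.77 (lowest, median and highest) in controls. At 5 months it had 4.36, 4.42, 4.62, 4.80 and 4.85 in FASD animals, against 4.50, 4.72 and 5.44 in controls. The FASD animals at 2 years lay closely together below 5 of the 6 controls, and control animal 2 lay among them. The alcohol difference was -0.37 (SE 0.13, unadjusted p = 0.00899, adjusted p = 0.579), with an exact permutation p of 0.0146. The PSMC4 probe set with a mean of 7.71 differed by -0.033 (SE 0.06), and the residual correlation of the 2 PSMC4 probe sets over 22 arrays was 0.083.

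Of the conjugating enzymes, UBE2N, which builds non-degradative ubiquitin chains, was measured by 2 probe sets that gave like alcohol differences. The probe set with a mean of 10.16 had 9.98, 10.04, 10.09, 10.11 and 10.18 in FASD animals at 2 years, against 10.03, 10.35 and 10.48 (lowest, median and highest) in controls. At 5 months it had 9.99, 10.02, 10.03, 10.14 and 10.22 in FASD animals, against 9.96, 10.13 and 10.39 in controls. Again 5 of 6 controls at 2 years lay above all FASD animals, and control animal 2 did not. The alcohol difference was -0.15 (SE 0.06, unadjusted p = 0.0164, adjusted p = 0.579, exact permutation p = 0.0211). The other UBE2N probe set, with a mean of 9.80, gave -0.15 (SE 0.08, unadjusted p = 0.0776), and the residual correlation of both was 0.58, the only one above 0.5 among the 11 symbols with 2 probe sets.

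UBE2D1, a conjugating enzyme that works with many ligases, had 7.17, 7.48, 7.60, 7.87 and 8.13 in FASD animals at 2 years, against 7.61, 8.11 and 8.55 (lowest, median and highest) in controls. At 5 months the means were 8.02 ± 0.27 in FASD animals and 8.08 ± 0.17 in controls (SD, n = 5 and 6). The alcohol difference was -0.27 (SE 0.12, unadjusted p = 0.0307, adjusted p = 0.58), and the exact permutation p of 0.0557 was above 0.05. The difference was -0.48 at 2 years and -0.056 at 5 months, and the interaction had an unadjusted p of 0.082. The related UBE2D2, UBE2D3 and UBE2D4 had alcohol differences between -0.043 and -0.022.

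UBE2W, which attaches ubiquitin to the amino terminus of proteins, was the 1 member higher in FASD animals at an unadjusted p under 0.05. It averaged 7.98 ± 0.10 in FASD animals and 7.83 ± 0.12 in controls at 2 years, and 7.98 ± 0.09 in FASD animals and 7.89 ± 0.08 in controls at 5 months (SD, n = 5 and 6 at each age). The difference was 0.12 (SE 0.05, unadjusted p = 0.0213, adjusted p = 0.579, exact permutation p = 0.013). The enzymes of NEDD8, a ubiquitin-like modifier, did not stand out. UBE2M differed by 0.0084 (SE 0.13), and the probe sets of UBE2F by -0.025 and 0.038. UBE2S, which extends chains for the anaphase-promoting complex, differed by -0.085 and 0.019, and UBE2T, which acts in DNA crosslink repair, by 0.045. The remaining UBE2 probe sets lay between -0.11 for UBE2J1, an enzyme of the endoplasmic reticulum, and 0.078 for UBE2R2, which works with cullin ligases.

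**Figure D3:**
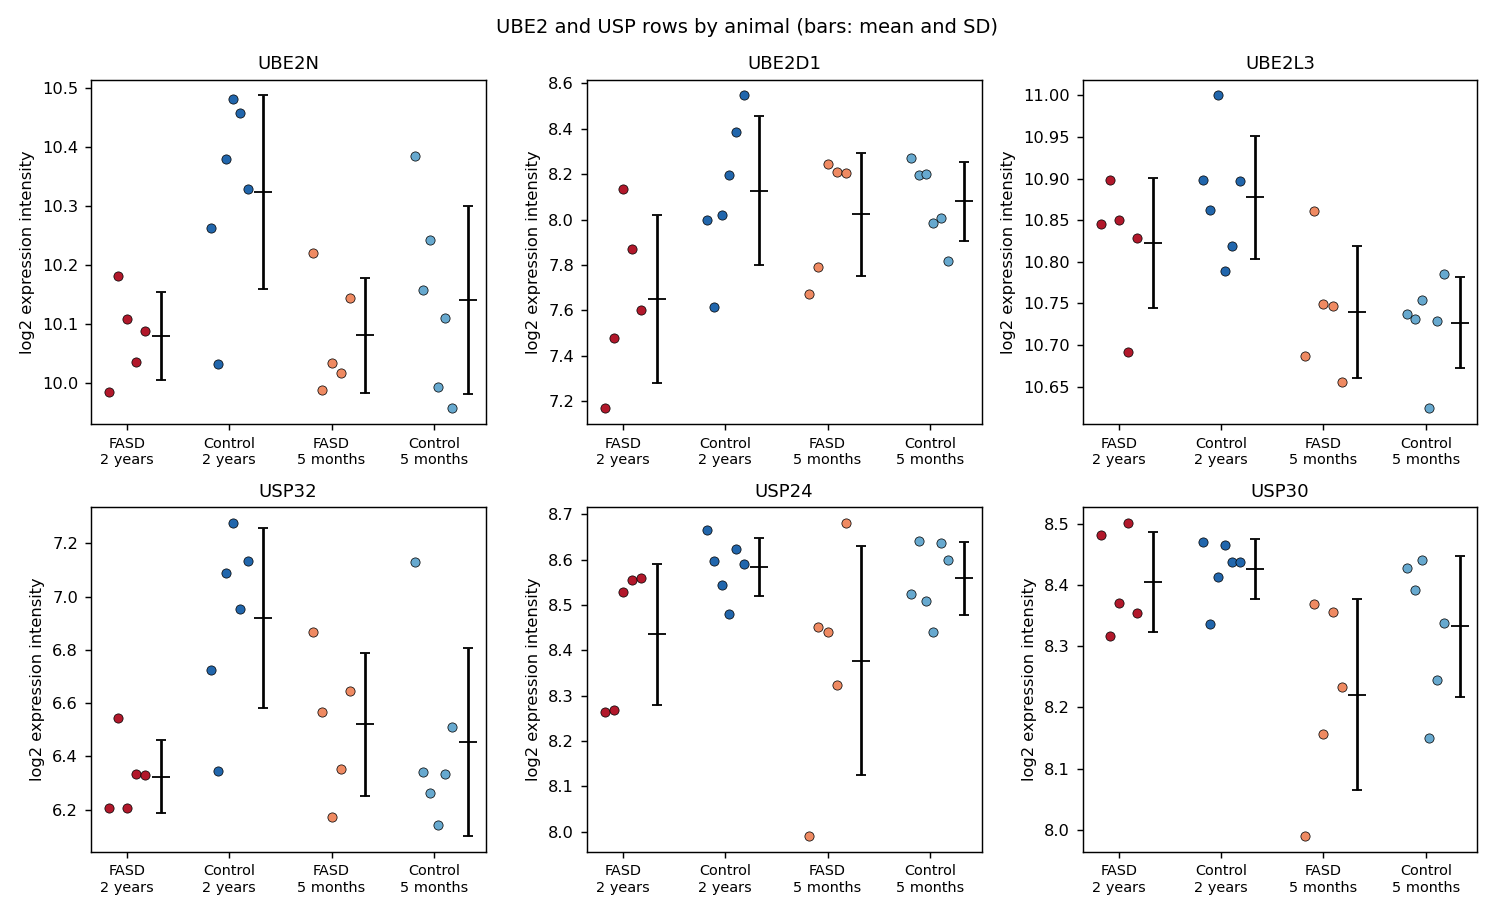
Log2 expression intensity of 3 UBE2 and 3 USP probe sets in each animal, with the group mean and SD beside the points; the groups are FASD and control at 2 years and FASD and control at 5 months. USP32 and UBE2N are lower in FASD animals than in 5 of 6 controls at 2 years. UBE2L3 is higher in all controls at 2 years than in all controls at 5 months, by a narrow margin at the boundary.

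USP32, a membrane-associated deubiquitinase, differed most at 2 years. It had 6.21, 6.21, 6.33, 6.33 and 6.54 in FASD animals at 2 years, against 6.34, 7.02 and 7.28 (lowest, median and highest) in controls. At 5 months it had 6.17, 6.35, 6.57, 6.65 and 6.87 in FASD animals, against 6.14, 6.34 and 7.13 in controls. At 2 years 5 of 6 controls lay above all FASD animals, control animal 2 did not, and at 5 months the groups covered the same range. The difference was -0.60 at 2 years (SE 0.16, unadjusted p = 0.00147, adjusted p = 0.793) and 0.068 at 5 months (SE 0.16). The interaction of -0.66 (SE 0.23, unadjusted p = 0.00914, adjusted p = 1) ranked 34 of all probe sets. Averaged over both ages the difference was -0.26 (unadjusted p = 0.0332) with an exact permutation p of 0.0836. In controls USP32 was 0.47 higher at 2 years than at 5 months (unadjusted p = 0.00685), and in FASD animals it differed by -0.20 (unadjusted p = 0.264). Without control animal 2 at 2 years the interaction was -0.78.

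Of the other USP enzymes, USP38 and USP24 were lower in FASD animals. USP38 had 7.59, 7.77, 7.95, 8.19 and 8.24 in FASD animals at 2 years, against 7.87, 8.29 and 8.41 (lowest, median and highest) in controls, and 7.99, 8.05, 8.19, 8.23 and 8.38 in FASD animals at 5 months, against 8.14, 8.27 and 8.58 in controls. The groups overlapped at both ages, with an alcohol difference of -0.22 (SE 0.09, unadjusted p = 0.019, adjusted p = 0.579, exact permutation p = 0.0249). USP24 had 8.26, 8.27, 8.53, 8.55 and 8.56 in FASD animals at 2 years, against 8.48, 8.59 and 8.67 in controls, and 7.99, 8.32, 8.44, 8.45 and 8.68 in FASD animals at 5 months, against 8.44, 8.56 and 8.64 in controls. The difference was -0.16 (SE 0.06, unadjusted p = 0.0171, adjusted p = 0.579, exact permutation p = 0.0105). The lowest USP24 value, 7.99, was that of FASD animal 2 at 5 months, and without this animal the difference was -0.12 (unadjusted p = 0.0385). USP22, the deubiquitinase of the SAGA transcription complex, had the highest alcohol difference of the 82, 0.16 (SE 0.08, unadjusted p = 0.0738), and its highest value, 9.51, was that of the same animal. Without it the USP22 difference was 0.095, and a USP21 probe set had the highest of the 82, 0.13. The remaining USP probe sets lay between -0.13 for USP1, a deubiquitinase of DNA repair proteins, and 0.11 for USP20, and USP39, a splicing factor without protease activity, differed by 0.016.

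**Figure D4:**
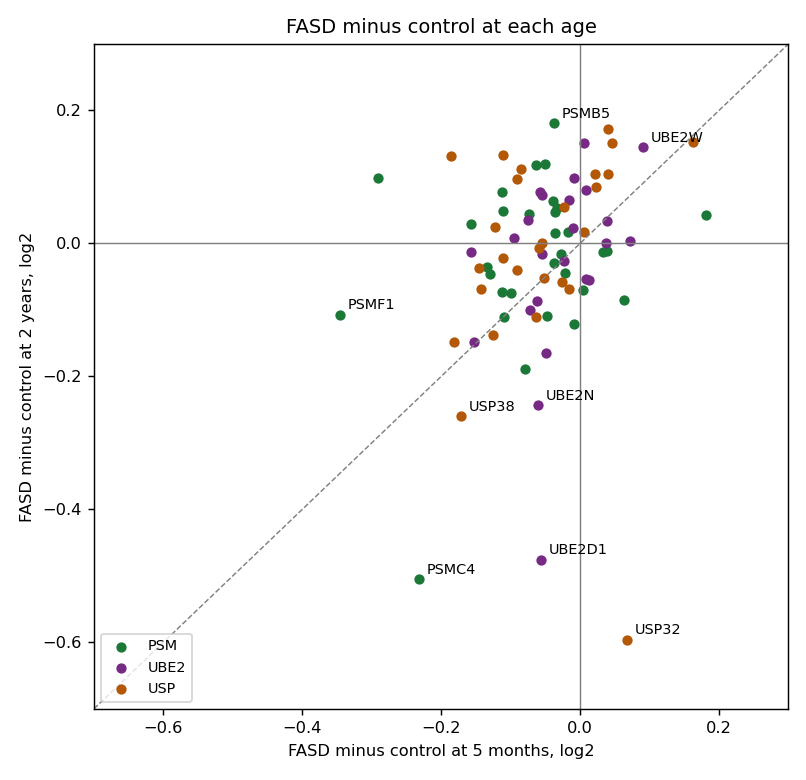
FASD minus control on the log2 scale at 5 months (horizontal axis) and at 2 years (vertical axis) for the 82 probe sets, coloured by prefix; the dashed line marks equal differences, and symbols are given for probe sets at unadjusted p under 0.05 at either age. USP32, PSMC4 and UBE2D1 lie lowest on the vertical axis, and PSMF1 lies farthest left.

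Several of these probe sets varied together from animal to animal within the groups. After the group means were taken off, USP32 correlated with the PSMC4 probe set of mean 4.78 at 0.83 and with the UBE2N probe set of mean 10.16 at 0.77, and the last 2 correlated at 0.73, over 22 arrays that all 3 share. These genes come from 3 different prefixes. Control animal 2 at 2 years was the lowest of its group in all 3 (6.34, 4.45 and 10.03), and control animal 1 at 5 months was the highest of its group in all 3 (7.13, 5.44 and 10.39). Without control animal 2 at 2 years the correlations were 0.77, 0.68 and 0.64. UBE2W, which was higher in FASD animals, correlated with USP32 at -0.55, with this PSMC4 probe set at -0.52 and with this UBE2N probe set at -0.48. Without the same control these were -0.36, -0.34 and -0.23. A separate pair, UBE2D1 and USP38, correlated at 0.83. These probe sets were picked for their alcohol p values, and the correlations are given as a description. The median correlation over all pairs within a prefix was 0.17 for PSM, 0.045 for UBE2 and 0.055 for USP, beside 0.018 over all pairs of the table. Of the 31 PSM probe sets, 10 correlated above 0.5 with the mean of the other PSM probe sets. For UBE2 and USP, each within its own prefix, these were 1 of 24 and 5 of 27. Below zero were 3 PSM, 4 UBE2 and 8 USP probe sets, among them USP32 at -0.68. A matching share over all probe sets was not counted.

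Age differences were as small as those of alcohol and were more often above zero. They lay between -0.18 and 0.16, with 56 of 82 (68.3%) higher at 2 years, beside 51.5% of all probe sets. Without FASD animal 2 at 5 months 48 of 82 (58.5%) were, beside 48.4%, and with array weights 46 of 82 (56.1%), beside 49.0%. Unadjusted p under 0.05 was reached by 8 of the 82, 6 higher and 2 lower at 2 years, or 9.76%, against 9.57% of all probe sets (4.68% higher and 4.89% lower). Of all probe sets 16 had an adjusted p under 0.05, and no member was among them. Within FASD animals 6 of 82 (7.32%) had an unadjusted p under 0.05 for age, beside 6.99% of all probe sets. Within controls 5 of 82 (6.10%) did, beside 5.55%. With all animals none of the 31 PSM probe sets reached unadjusted p under 0.05, beside 4 of 24 UBE2, all higher, and 4 of 27 USP, 2 higher and 2 lower. In 6 of 22 omissions of 1 animal at least 1 PSM probe set did, such as PSMD6 without control animal 2 at 2 years and a PSMC3IP probe set without FASD animal 2 at 5 months (0.11, unadjusted p = 0.0278). Without that control 12.4% of all probe sets reached the limit for age, and the share gained over all omissions was not counted. The medians were 0.028 for PSM, 0.016 for UBE2 and 0.032 for USP, beside 0.0028 for all probe sets. Without FASD animal 2 at 5 months the USP median was -0.0033, with 15 of 27 below zero.

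UBE2L3, a conjugating enzyme that serves parkin and the linear chain ligase, had the lowest p of the members for age. It had 10.69, 10.83, 10.85, 10.85 and 10.90 in FASD animals at 2 years, against 10.65, 10.69, 10.75, 10.75 and 10.86 in FASD animals at 5 months. In controls it had 10.79, 10.88 and 11.00 (lowest, median and highest) at 2 years, against 10.62, 10.73 and 10.78 at 5 months. All controls at 2 years lay above all controls at 5 months, as for 0.122% of all probe sets in this direction. The margin at the boundary was narrow, 10.789 against 10.785, and the FASD animals of both ages overlapped. The age difference was 0.12 (SE 0.04, unadjusted p = 0.00694, adjusted p = 0.288), and the exact permutation of ages within each exposure, over 232848 arrangements, gave a two-sided p of 0.00167. It was 0.15 in controls and 0.083 in FASD animals, and the interaction had an unadjusted p of 0.398.

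UBE2Q1 was 0.16 higher at 2 years (SE 0.06, unadjusted p = 0.0215) and UBE2T 0.13 higher (SE 0.05, unadjusted p = 0.016). The UBE2F probe set with a mean of 10.02 was 0.12 higher (SE 0.05, unadjusted p = 0.0277), and the other UBE2F probe set gave -0.078 (SE 0.08). UBE2T averaged 6.08 ± 0.18 at 2 years and 5.90 ± 0.07 at 5 months in FASD animals (SD, n = 5 each), and 5.98 ± 0.03 and 5.91 ± 0.07 at the same ages in controls (SD, n = 6 each). These enzymes serve ubiquitin transfer, NEDD8 transfer and DNA repair.

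USP30, a deubiquitinase of the mitochondrial outer membrane, had 8.32, 8.35, 8.37, 8.48 and 8.50 in FASD animals at 2 years, against 7.99, 8.16, 8.23, 8.36 and 8.37 in FASD animals at 5 months. In controls it had 8.34, 8.44 and 8.47 (lowest, median and highest) at 2 years, against 8.15, 8.37 and 8.44 at 5 months. At 2 years no animal lay below 8.32, and the ages overlapped in both exposures. The age difference was 0.14 (SE 0.05, unadjusted p = 0.0102, adjusted p = 0.326, exact permutation p = 0.00567). USP13, a deubiquitinase with roles in protein quality control, was lower at 2 years by -0.14 (SE 0.05, unadjusted p = 0.0181, exact permutation p = 0.0131). It averaged 8.22 ± 0.06 at 2 years and 8.26 ± 0.09 at 5 months in FASD animals, and 8.10 ± 0.17 and 8.34 ± 0.13 at the same ages in controls. USP38 was lower by -0.18 (unadjusted p = 0.0492), with an exact permutation p of 0.062. The USP21 probe set with a mean of 3.63, at percentile 0.895 of the table, was higher by 0.15 (unadjusted p = 0.0393), and the other USP21 probe set by 0.047.

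**Figure D5:**
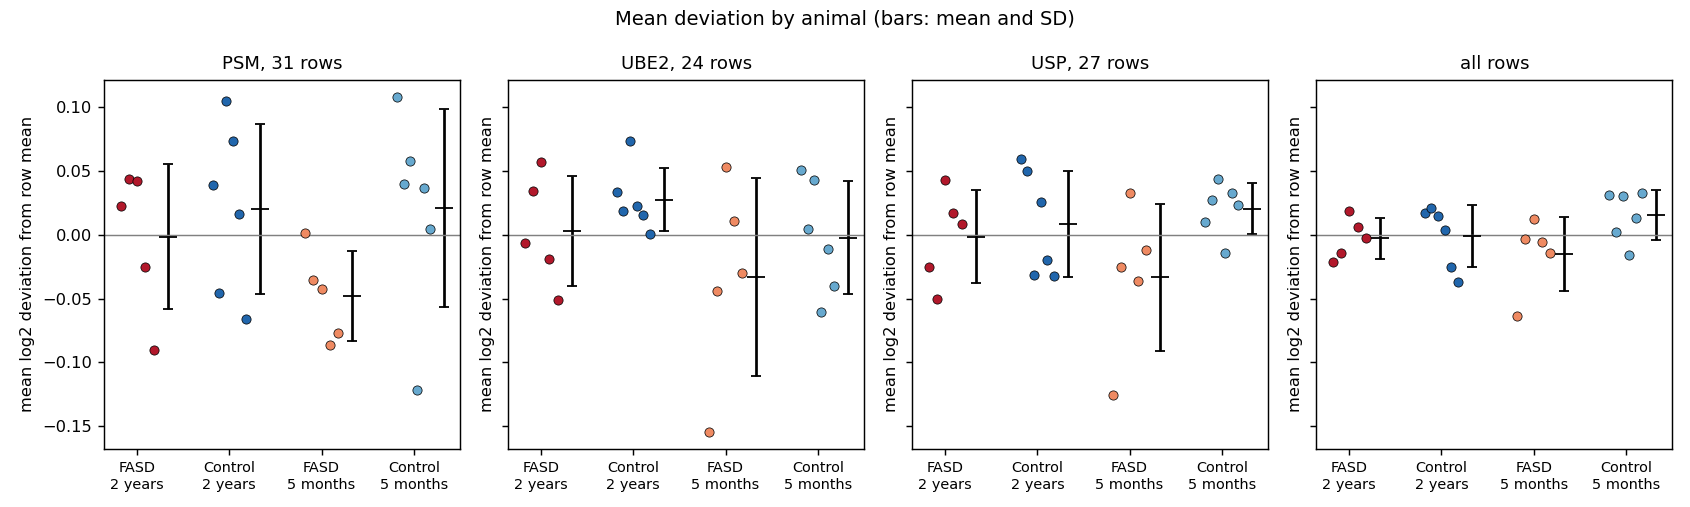
Mean deviation of the probe sets of each prefix, and of all probe sets, from their own means over the 22 animals, 1 point per animal, with the group mean and SD; the vertical axis is log2 and the groups are FASD and control at 2 years and FASD and control at 5 months. FASD animal 2 at 5 months is the lowest point for UBE2 (-0.15) and USP (-0.13), and the groups overlap in all 4 panels.

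Taken as means over a prefix, the animals differed by little. The PSM score was -0.0017 ± 0.057 in FASD animals and 0.020 ± 0.067 in controls at 2 years, and -0.048 ± 0.035 in FASD animals and 0.021 ± 0.078 in controls at 5 months (SD, n = 5 and 6 at each age). FASD animals at 5 months lay between -0.086 and 0.0016, inside the control range of -0.12 to 0.11. The low end of that range was control animal 4. The other controls of that age, 0.0047 to 0.11, all lay above the FASD animals. The margin at the boundary was narrow, 0.0047 against 0.0016, beside an SD of 0.061 between animals within the groups. Control animal 4 was set aside here only after its value was seen. The UBE2 score was lowest in FASD animal 2 at 5 months, -0.15, and the USP score was lowest in the same animal, -0.13, while its PSM score of 0.0016 was the highest of its group. The score over all probe sets was also lowest in that animal, -0.064.

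The authors kept 1 probe set per gene under their own annotation, so 2 probe sets that share a symbol in the platform annotation used here stood for different genes in theirs. Which annotation holds for such a pair was not tested. Of 11 such symbols the alcohol differences had the same sign in 5 and the age differences in 6. PSMA1, UBE2O, UBE2S and USP21 had residual correlations below zero between their probe sets. Part of the array's probe sets can match more than 1 transcript, as the letters s and x in their names mark. UBE2L3, the UBE2N set of mean 10.16, the UBE2F set of mean 10.02 and the PSMC4 set of mean 7.71 carry such a letter. So do PSMB10, PSMD9, USP4, the PSMA1 set of mean 10.98, the UBE2S set of mean 8.64 and the USP21 set of mean 7.56.

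The rest of the pathway was taken from lists of activating enzymes, ligases, other deubiquitinases, shuttle factors and proteasome partners, of which 62 of 100 symbols were measured by 65 probe sets. For alcohol 4 of 65 reached unadjusted p under 0.05, all lower in FASD animals, which is 6.15%, against 8.44% of all probe sets (6.01% lower). They were UBA2 (-0.18), the SUMO activating subunit, BRCC3 (-0.15) and STAMBP (-0.13), metalloprotease deubiquitinases, and UBXN4 (-0.15), an adaptor of the segregase VCP. For age 1 of 65 did (1.54%, against 9.57%), NFE2L1 (0.15), a transcription factor of proteasome genes. For the interaction 5 of 65 did, all above zero (HERC2, UBE3B, NSFL1C, SQSTM1 and UFD1, between 0.17 and 0.30), which is 7.69%, against 3% of all probe sets (2.11% above zero). None had an adjusted p under 0.05. These genes are named because so few reached the limit, after their values had been seen.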

How the data were processed

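Hippocampal RNA of 22 animals was measured, 1 array each. The authors deposited log2 intensities computed with RMA (background correction, normalization and probe summary; version not given in the sources used here), reduced by annotation, detection and mean level. Of 24 arrays, 2 discarded by the authors, both of FASD animals, held no values and were not analysed here. Values were used without further scaling or filter. Probe sets were named from the platform annotation, which gives 1 symbol for 8730 of 11512, several for 88 and none for 2694. The annotation can be old. The members, lists and tests were chosen with earlier results of these data known. One gene of the USP prefix is not reported here.

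The fit was limma 3.58.1 in R 4.3.3 (1 mean per group, empirical Bayes, Benjamini-Hochberg over all probe sets), checked on simulated data. The two-way analysis of variance of the methods was an alternative. Exact two-sided permutation of animals was run only for members already at unadjusted p under 0.05 in limma for alcohol or age. It used the same values, so its p is not an independent test. Labels do not give the dams, and the number of arrays limits the precision. Named probe sets were, within each prefix, the 4 of lowest p for alcohol, the 4 for age and the 2 for the interaction, other probe sets of these symbols, and 21 symbols listed for their roles, of which 11 had a probe set. Others are named where a count or group is described. Alternatives were an intensity trend with robust variances, centring, quantile normalization, array weights, a filter at the median of mean expression, 1 probe set per symbol, a block on replicate number, and omission of single animals. The array's probes and the macaque annotation were not matched to vervet sequence, and no sequence was used here.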

Additional observations from a re-analysis of the deposited data

Results flagged for a closer look

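In 15 of 148 group tests of the named probe sets (10.1%) 1 animal lay far from the rest of its group; chance alone gives about 1 in 20. At 2 years these were, among FASD animals, PSMA2 in animal 1 (7.15, others 7.35 to 7.39), PSMC4 (the probe set of mean 7.71) in animal 6 (7.40, others 7.70 to 7.80), UBE2F in animal 1 (9.43, others at least 9.85) and UBE2M in animal 2 (9.48, others 8.53 to 8.79). Among controls at 2 years they were PSMA1 in animal 2 (10.61, others 11.02 to 11.22), PSMF1 in animal 1 (7.95, others 7.63 to 7.73), UBE2F in animal 3 (10.37, others 10.01 to 10.09) and UBE2S in animal 6 (8.50, others 8.63 to 8.66).

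At 5 months they were, among FASD animals, PSME2 (8.93, others 8.63 to 8.68) and UBE2S (8.79, others 9.29 to 9.47), both in animal 2, whose array stood apart over the whole table. Among controls at 5 months they were PSMF1 (8.11, others 7.58 to 7.71), UBE2W (7.74, others 7.87 to 7.95) and USP32 (7.13, others 6.14 to 6.51) in animal 1, and PSMB6 (10.16, others 10.41 to 10.56) and UBE2L3 (10.62, others 10.73 to 10.78) in animal 4. The 2 UBE2F values belong to different probe sets, as do the 2 UBE2S values.

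The FASD minus control difference itself differed between the ages at an unadjusted p under 0.05 for 2 probe sets, against 3% of all probe sets. The interaction was 0.22 for PSMB5 and -0.66 for USP32. Their adjusted p in limma, over all probe sets, was 1.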

How the results depend on the processing

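No member had an adjusted p under 0.05 under any alternative or with any 1 animal left out, and no difference of a named probe set past unadjusted p 0.05 changed sign. Counts at unadjusted p under 0.05 moved. Where no share of all probe sets stands beside a count, it cannot tell a move of the members from one of the whole table. With array weights they were 14 for alcohol (14.5% of all probe sets), 13 for age (14.1%), 6 for the interaction (6.29%), 11 (10.6%) and 5 (10.1%) for alcohol at 2 years and 5 months, and 10 for age in controls (11.8%). With only probe sets above the median of mean expression, 59 of them members, they were 3 for alcohol, 1 for the interaction, 3 and 0 for alcohol at 2 years and 5 months, and 3 for age in FASD animals. The unmoderated analysis of variance gave 4 for the interaction and 3 for alcohol at 5 months, centring gave 1 and 2, and quantile normalization gave 2 for alcohol at 5 months. Leaving out 1 animal gave 6 to 13 for alcohol (13, with 14.6% of all probe sets, without control animal 2 at 2 years), 4 to 10 for age (4 without FASD animal 1 at 2 years), 1 to 6 for the interaction (6, with 6.56%, without the same control), 4 to 14 for alcohol at 2 years (14, with 14.5%, without the same control, 4 without FASD animal 1 or control animal 6 of that age), 1 to 6 for alcohol at 5 months (6 without FASD animal 4 or control animal 4 of that age), 4 to 9 for age in FASD animals and 3 to 7 for age in controls (3 without control animal 5 at 2 years). Unadjusted p reached 0.05 or more without 1 animal in 7 of 22 cases for UBE2D1, 8 for USP32, 4 for UBE2F, 2 for UBE2Q1, 9 for USP21, 13 for USP38 with age and 12 for the PSMB5 interaction. PSMF1 stayed between -0.25 and -0.19, with p at most 0.0045. Leaving out 1 animal kept the PSM medians between -0.040 and -0.014 for alcohol and between 0.0085 and 0.045 for age, put the UBE2 medians between -0.037 and 0.0064 and between 0.011 and 0.048, and put the USP medians between -0.046 and -0.013 and between -0.0033 and 0.042. Causes were not tested.

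Replicate numbers were not taken as pairs in the main fit. Same-numbered pairs had a mean residual correlation of 0.071 over 30 pairs, 13 of them over 0.1. Pairs with other numbers had a mean of -0.011 over 151 pairs, 38 of them over 0.1. Whether the numbers mark a pairing was not tested further. With the replicate number as a block the counts were 7 for alcohol, 8 for age and 3 for the interaction, given without the shares of all probe sets.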
